A study of Caenorhabditis elegans with 9 samples.

Results

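Propionate arises when animals break down odd-chain fatty acids and the amino acids valine, isoleucine, methionine and threonine, and it is toxic when it builds up. Caenorhabditis elegans clears it in mitochondria by a route that ends in a mutase needing vitamin B12. When B12 is scarce and propionate persists, the worm turns on a B12-independent shunt under the nuclear hormone receptors nhr-10 and nhr-68, and expression of its first gene, acdh-1, is widely used as a readout of B12 in the diet. The genes followed here were chosen by name from this biology, but with earlier results of these data known. All 10 were found by symbol among the 46986 genes of the deposited table. They are 3 genes of the B12-dependent route (pcca-1, pccb-1, mmcm-1), 5 shunt enzymes (acdh-1, ech-6, hach-1, hphd-1, alh-8) and the 2 receptors.

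RNA of whole worms was sequenced in 9 libraries, 3 per group. OP was the control, and its columns carry the name OP50, an Escherichia coli strain used as standard worm food. HFD was a high-fat group, with fat accumulation induced by citrate per the series title, and FA combined the high-fat condition with farrerol, a plant flavanone. The sources used here state neither strain, age and doses nor the B12 content of the food. Separate cultures behind the replicates are not stated either. The p-values thus judge differences of group means against the spread between libraries, which may be technical.

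Expression is given in FPKM, which counts fragments per kilobase of gene length, scaled by a factor for each library. The factor did not follow the read total alone. A read on 1 kilobase counted as 0.0563 FPKM in FA replicate 2 (20056071 reads on genes) and 0.0434 in FA replicate 3 (20166991). The deposited values thus carry a further correction of a kind not stated. Factors from TMM, a trimmed-mean scaling between libraries, were 0.876 and 1.14 for these libraries. In each of the 9 libraries the deposited factor was nearly inverse to the product of read total and TMM factor. The correction is thus close to TMM in size, though its method is not stated. The 9 libraries held 17514542 to 21419867 reads on genes, and 14730 genes passed the filter of 1 FPKM in at least 3 libraries, all 10 members among them. Reads per library ran from 215 to 409 for nhr-10, the lowest of the 10, and from 20682 to 32700 for alh-8, the highest. Differences are those of the group means of log2(FPKM + 1), tested with limma on all 14730 genes, and a gene counts as called when its p, adjusted over all those genes by Benjamini-Hochberg, is under 0.05.

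No member was called in any comparison in limma. In HFD against OP, 0 of 10 passed while 7.35% of all genes tested did; in FA against OP, 0 of 10 passed while 14.6% of all genes did; and in FA against HFD, 0 of 10 passed while 0.00679% of all genes did, which is 1 gene. At an unadjusted p under 0.05 there were 3 members in HFD against OP, all shunt enzymes and all lower, against 21.9% of all genes. That count was 2 in FA against OP, against 27.7%, and 0 in FA against HFD, against 2.5%. limma-voom on reads recovered from the FPKM values also called 0 members in each comparison. The libraries of 2 groups overlapped for every member in each comparison, whereas 29.3% of all genes had no overlap in HFD against OP, 31% in FA against OP and 5.1% in FA against HFD.

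**Figure D1:**
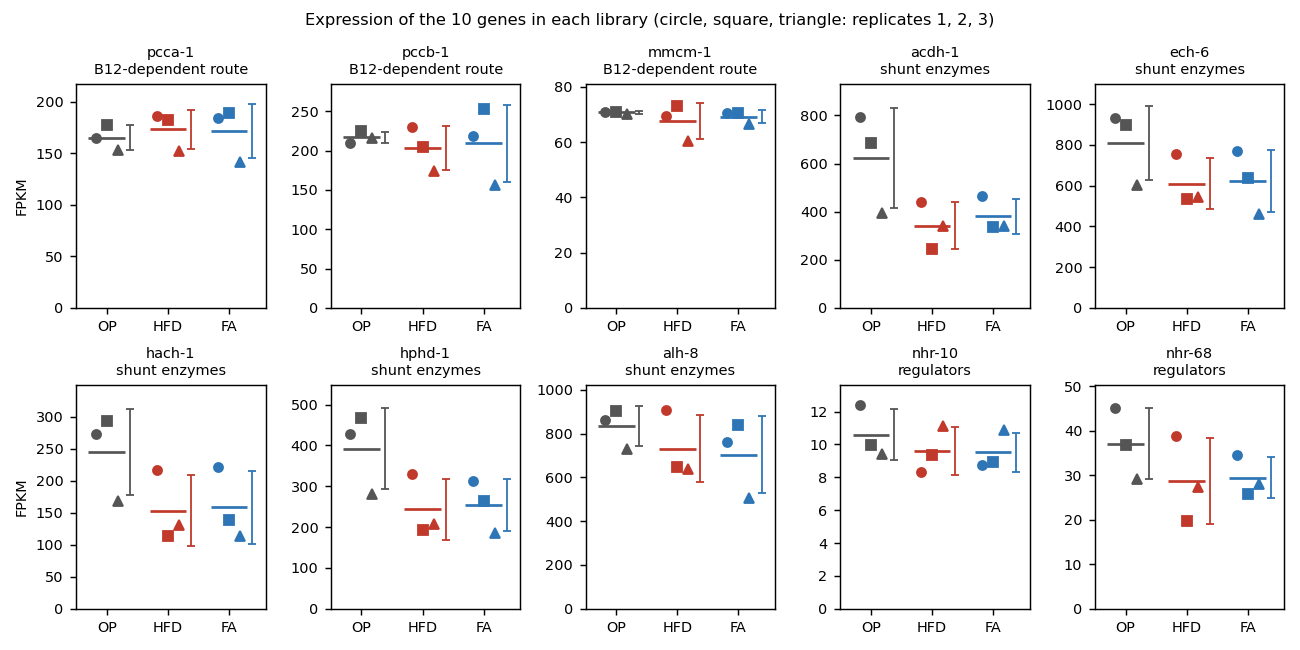
Expression in FPKM (y axis, from 0) of each of the 10 genes in the OP, HFD and FA groups; symbols are single libraries, horizontal lines group means and bars the SD over n = 3. The shunt enzymes spread widely within each group, whereas mmcm-1 stayed between 60.4 and 73.2 FPKM in all 9 libraries.

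The level of each gene of the B12-dependent route overlapped between groups. Propionyl-CoA carboxylase, the biotin enzyme that makes methylmalonyl-CoA, has an alpha subunit encoded by pcca-1 (WBGene00017864, chromosome X, 7657542 to 7660986, minus strand, WBcel235) and a beta subunit encoded by pccb-1 (WBGene00018701, chromosome X, 3089549 to 3092437, plus strand). Expression of pcca-1 was 165, 177 and 153 FPKM in OP replicates 1 to 3, 186, 182 and 152 in HFD, and 184, 189 and 141 in FA. All 3 groups overlapped. Expression of pccb-1 was 209.8, 225 and 216 FPKM in OP, 230.2, 205 and 174 in HFD, and 219, 253 and 157 in FA, again with overlap of all groups. The pccb-1 gene shares 43 exonic bases with the oppositely oriented wrt-2, whose mean over the 9 libraries was 52.1 FPKM, and the sources used here do not say whether reads were counted by strand.

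The alpha-subunit gene was below the beta-subunit gene in every library. The ratio of pcca-1 to pccb-1 FPKM averaged 0.761 ± 0.0447 in OP, 0.855 ± 0.0436 in HFD and 0.83 ± 0.078 in FA (mean ± SD, n = 3). It ran from 0.709 to 0.787 in OP and from 0.806 to 0.890 in HFD, without overlap. FA ran from 0.746 to 0.900 and overlapped both. The ratio was not tested. Lack of overlap was common, as 29.3% of all genes tested had none in HFD against OP. How often ratios between genes lack overlap was not counted.

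The gene mmcm-1 (WBGene00014202, chromosome III, 3903185 to 3907687, minus strand) encodes methylmalonyl-CoA mutase, the B12-dependent enzyme that yields succinyl-CoA for the citrate cycle. It was at 71.0, 71.0 and 70.3 FPKM in OP, 69.4, 73.2 and 60.4 in HFD, and 70.4, 70.7 and 66.5 in FA. The SD within OP was 0.6% of the mean, the narrowest of the 10 genes in any group. It was 9.68% in HFD and 3.39% in FA, so the narrow OP spread, from 3 libraries, did not hold in the other groups. The difference of HFD from OP was -0.07 on the log2 scale (95% interval -0.32 to 0.18, adjusted p = 0.788), which puts the HFD level of FPKM + 1 between 80.2% and 113% of OP. For pcca-1 and pccb-1 the HFD differences were 0.07 (-0.27 to 0.40) and -0.10 (-0.51 to 0.30). In these intervals a change of the route by a factor of 2 lies outside the range for each of its 3 genes.

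The shunt genes had lower HFD means than OP means, all 5 of 5, where 48.1% of all genes tested had a negative difference. None passed the adjusted threshold. The first enzyme, the acyl-CoA dehydrogenase gene acdh-1 (WBGene00016943, chromosome I, 6497436 to 6499560, plus strand), oxidises propionyl-CoA to acrylyl-CoA. Its expression was 794, 684 and 392.3 FPKM in OP replicates 1 to 3, 441, 244 and 342 in HFD, and 463, 335 and 342 in FA. OP replicates 1 and 2 stood above every HFD and FA library, while OP replicate 3 lay inside the range of both. The mean was 623 ± 208 FPKM in OP and 342 ± 98.2 in HFD, a log2 difference of -0.84 (SE 0.29, 95% interval -1.48 to -0.21, unadjusted p = 0.0142, adjusted p = 0.111 in limma). The HFD level of FPKM + 1 was thus 55.8% of OP, with an interval from 35.9% to 86.7% before adjustment.

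The hydratase gene ech-6 (WBGene00001155, chromosome III, 9751552 to 9752883, minus strand) adds water to acrylyl-CoA and is shared with valine breakdown. It was at 929.6, 895 and 602 FPKM in OP, 755, 532 and 541 in HFD, and 768, 638 and 461 in FA. The HFD difference was -0.40 (-0.94 to 0.14, adjusted p = 0.396). The next gene, hach-1 (WBGene00017301, chromosome III, 5555450 to 5557318, plus strand), encodes the hydrolase that releases 3-hydroxypropionate and is likewise used for valine.

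Expression of hach-1 was 274, 293 and 168 FPKM in OP, 217, 113 and 131 in HFD, and 222, 139 and 114.2 in FA. As for acdh-1, OP replicates 1 and 2 stood above every HFD and FA library, and OP replicate 3 lay inside the range of both. The HFD difference was -0.69 (-1.38 to -0.00079, unadjusted p = 0.0498, adjusted p = 0.228).

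The transhydrogenase gene hphd-1 (WBGene00012608, chromosome II, 12994354 to 12996571, minus strand) oxidises 3-hydroxypropionate to malonic semialdehyde and passes the electrons to 2-oxoglutarate, which becomes D-2-hydroxyglutarate. It was at 428, 467 and 280.4 FPKM in OP, 329.9, 192 and 208 in HFD, and 312, 265 and 185 in FA. OP replicate 3 was below HFD replicate 1 and FA replicate 1, so the groups overlapped. The HFD difference was -0.69 (-1.29 to -0.09, unadjusted p = 0.0274, adjusted p = 0.164).

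The last enzyme, alh-8 (WBGene00000114, chromosome II, 11729055 to 11731198, plus strand), a semialdehyde dehydrogenase that forms acetyl-CoA and also serves valine breakdown, was at 864, 905 and 731 FPKM in OP, 907, 648 and 637 in HFD, and 762.3, 841 and 507 in FA. Its highest library was HFD replicate 1. The HFD difference was -0.20 (-0.70 to 0.30, adjusted p = 0.667), the smallest of the 5. The gene shares 34 exonic bases with F13D12.8 on the other strand, whose mean was 13.4 FPKM.

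**Figure D2:**
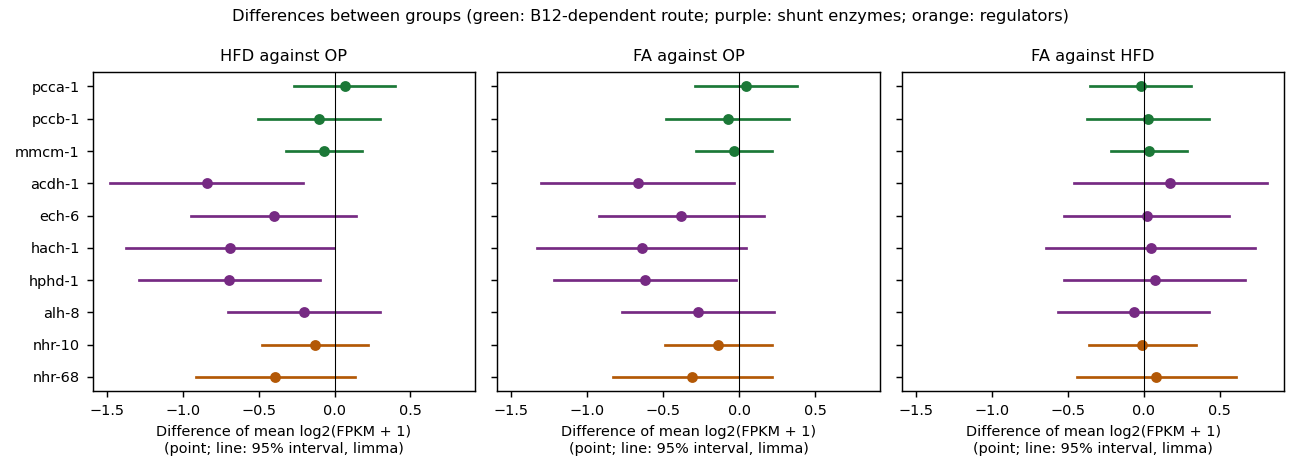
Differences of mean log2(FPKM + 1) with 95% intervals from limma (x axis) for the 10 genes (y axis) in each comparison. In HFD against OP, 3 shunt enzymes have intervals below 0 before adjustment, from -0.84 for acdh-1 to -0.69 for hach-1; in FA against HFD all 10 points lie between -0.07 and 0.17.

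Of the receptors, nhr-68 (WBGene00003658, chromosome V, 11573440 to 11575709, plus strand) was expressed at 45.1, 36.8 and 29.2 FPKM in OP, 38.9, 19.7 and 27.3 in HFD, and 34.6, 25.8 and 28.0 in FA. Its HFD difference was -0.39 (-0.91 to 0.13, adjusted p = 0.388). Expression of nhr-10 (WBGene00003609, chromosome III, 7112295 to 7115438, minus strand) was 12.4, 9.97 and 9.43 FPKM in OP, 8.30, 9.37 and 11.2 in HFD, and 8.73, 8.93 and 10.9 in FA. The HFD difference of nhr-10 was -0.13 (-0.48 to 0.22, adjusted p = 0.705), and all groups overlapped for both receptors.

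Adding farrerol was compared in FA against HFD. Group means in FA and HFD were close for every member. For acdh-1 they were 379.9 ± 72.3 FPKM in FA and 342 ± 98.2 in HFD, which differ by 0.17 on the log2 scale (95% interval -0.46 to 0.81). For hphd-1 the difference was 0.07 (-0.53 to 0.67), for hach-1 0.05 (-0.64 to 0.73), for ech-6 0.02 (-0.53 to 0.56) and for alh-8 -0.07 (-0.57 to 0.43). The receptors differed by 0.08 (nhr-68) and -0.01 (nhr-10), and the route by -0.02 (pcca-1), 0.03 (pccb-1) and 0.04 (mmcm-1). The adjusted p in limma was 1 for each of the 10 genes, and 3 of the 10 differences were negative, against 51.3% over all genes. The intervals still admit, for acdh-1, an FA level from 72.6% to 175% of HFD, so a modest shift in either direction was not detectable at this spread.

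FA against OP uses the same OP libraries as HFD against OP, so the pair of comparisons is not independent. Side by side, the FA and HFD differences from OP were -0.67 and -0.84 for acdh-1, -0.62 and -0.69 for hphd-1, -0.64 and -0.69 for hach-1, -0.38 and -0.40 for ech-6, and -0.27 and -0.20 for alh-8. All 5 shunt differences were negative in FA against OP, where 47.5% over all genes were. There acdh-1 and hphd-1 had unadjusted p of 0.0413 and 0.0431, with adjusted p of 0.16 and 0.164. The median over the 5 shunt genes was -0.69 in HFD against OP and -0.62 in FA against OP, beside 0.01 and 0.02 over all genes tested. Over the 3 genes of the route it was -0.07 and -0.03.

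**Figure D3:**
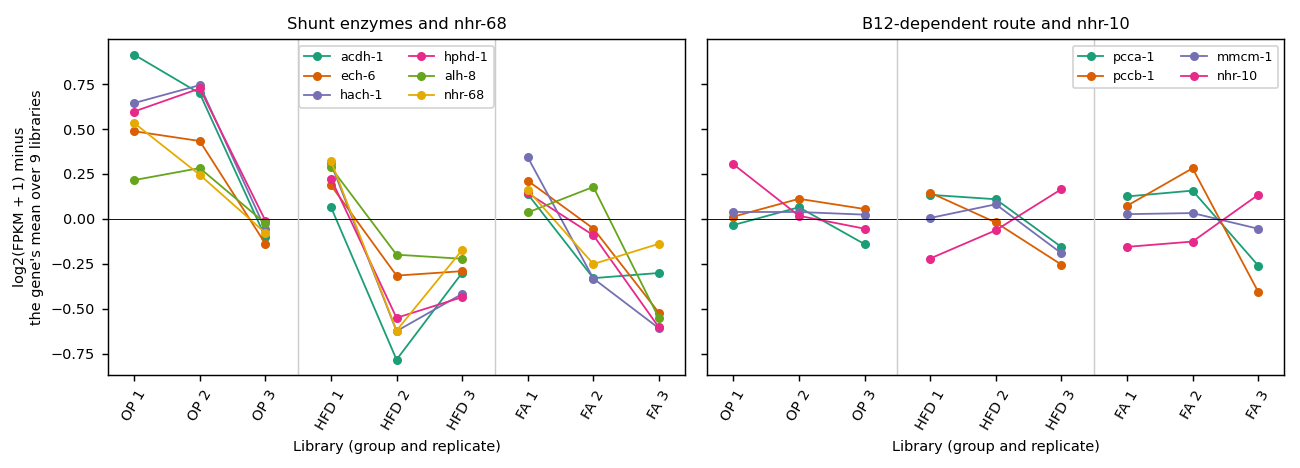
Expression of each gene as log2(FPKM + 1) minus its own mean over the 9 libraries (y axis) in each library (x axis); lines only join the points of a gene within a group, and the replicates have no order. The shunt enzymes and nhr-68 spread together within groups, whereas mmcm-1 stays near 0. The route gene pccb-1 runs from -0.41 to 0.28 within FA.

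The shunt genes varied together between libraries of the same group. In OP, replicate 3 was the lowest library for 5 of the 5 enzymes and for both receptors. In HFD, replicate 1 was the highest for 5 of 5 enzymes and for nhr-68, and replicate 2 the lowest for 4 of 5 and for nhr-68. In FA, replicate 1 was the highest for 4 of 5 enzymes, all but alh-8, and for nhr-68, and replicate 3 the lowest for 4 of 5. The other receptor, nhr-10, did not follow them: HFD replicate 1 and FA replicate 1 were its lowest libraries. Within a group, the highest library of acdh-1 was 2.02 times the lowest in OP, 1.8 times in HFD and 1.38 times in FA, against 1.01, 1.21 and 1.06 times for mmcm-1. For pcca-1 these ratios were 1.15, 1.22 and 1.34, and for pccb-1 1.07, 1.32 and 1.61, the last above that of acdh-1 in FA. Route genes also moved together: HFD replicate 3 and FA replicate 3 were the lowest and FA replicate 2 the highest library of their group for 3 of 3. The measured genes of branched-chain amino acid breakdown, listed further below, shared much of the shunt order. OP replicate 3 was the lowest for all of them but dld-1 and ivd-1. HFD replicate 1 was the highest for all but acaa-2, and FA replicate 3 the lowest for all but bcat-1 and acdh-2. The order was thus not particular to the shunt, and its share over all genes was not counted.

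Summed over the 5 enzymes, the shunt amounted to 3289, 3244 and 2174 FPKM in OP, 2649, 1729 and 1859.6 in HFD, and 2527, 2218 and 1609 in FA. OP replicate 3 was below HFD replicate 1 and both FA replicates 1 and 2. The 3 genes of the route summed to 446, 473 and 439.7 FPKM in OP, 485, 461 and 386 in HFD, and 474, 512 and 364 in FA. The shunt sum was 7.38, 6.86 and 4.94 times the route sum in OP, 5.46, 3.75 and 4.81 times in HFD, and 5.34, 4.33 and 4.42 times in FA. Thus in 2 OP libraries the ratio was above every HFD and FA library, and in the third it was within their range. Since alh-8, ech-6 and hach-1 also serve valine breakdown, this sum is not a measure of the shunt alone.

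**Figure D4:**
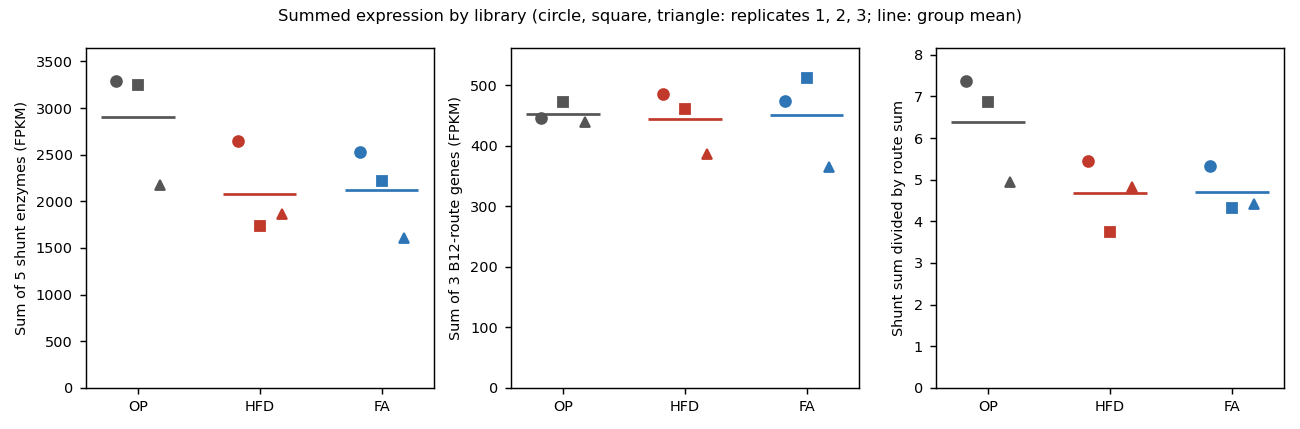
Summed FPKM of the 5 shunt enzymes (left), summed FPKM of the 3 B12-route genes (middle) and their ratio (right) in each library, with group means as lines; all y axes start at 0. The ratio in OP runs from 4.94 to 7.38, in HFD from 3.75 to 5.46 and in FA from 4.33 to 5.34.

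The order of the levels was much the same in each group. In FPKM, which is per length, alh-8 and ech-6 were the most abundant in all groups, with ranges that overlapped each other. In OP they were followed by acdh-1, hphd-1, hach-1 and pccb-1, each overlapping the next, and then by pcca-1, mmcm-1, nhr-68 and nhr-10, which were separated from one another in all libraries. The gene hach-1 stood above both carboxylase subunits by its OP mean, 245 FPKM, and below both by its HFD and FA means, 153 and 158 FPKM, with overlapping ranges. The mutase mmcm-1, nhr-68 and nhr-10 closed the order in all 3 groups with no overlap between neighbours.

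Likeness of pattern was measured as the root mean square difference between genes in log2(FPKM + 1) over the 9 libraries, after each gene's own mean was removed; a smaller value means a closer pattern. Counting from the closest of 14729 other genes, hach-1 ranked 7, hphd-1 10, nhr-68 33 and ech-6 66 in likeness to acdh-1. The genes alh-8, nhr-10, pccb-1, mmcm-1 and pcca-1 ranked 739, 2863, 3907, 4036 and 5093. These ranks describe 9 libraries that share group differences and library differences, and carry no test.

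Outside the 10 genes, the closest patterns to acdh-1 were those of C56E6.2, F54D5.12 and adt-1, at 0.12, 0.14 and 0.15 log2 units. F54D5.12 averaged 84.0 ± 24.1 FPKM in OP, 54.9 ± 13.5 in HFD and 57.0 ± 12.5 in FA, and the table annotates it as an FAD-binding PCMH-type domain-containing protein with a plant D-2-hydroxyglutarate dehydrogenase as protein match. C56E6.2, annotated as an uncharacterized protein with a plant Ras-related protein as match, averaged 13.9 ± 4.1 FPKM in OP and 6.58 ± 2.37 in HFD. The metalloprotease gene adt-1 averaged 7.02 ± 1.56 and 3.82 ± 1.51. In the order C56E6.2, F54D5.12 and adt-1, the adjusted p in limma for HFD against OP was 0.0624, 0.194 and 0.0952. These genes were picked for likeness to acdh-1 in the same libraries, and acdh-1 for its low p. Their differences and p-values thus follow from that choice and are no separate evidence. For nhr-68 the closest were sago-2, elo-9 and ckc-1, at 0.1, 0.12 and 0.13, and for mmcm-1, whose level hardly moved, F52B11.2, W03F8.4 and K02D10.1, at 0.02, 0.05 and 0.05.

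Genes around the pathway were examined as lists. Of 8 genes for B12 handling and the epimerase step between carboxylase and mutase, 0 were called in any comparison, with a median of 0.05 in HFD against OP. The epimerase gene mce-1 averaged 71.7 ± 5.17 FPKM in OP, 73.0 ± 9.33 in HFD and 73.2 ± 10.1 in FA. In HFD against OP the lowest p values of that list belonged to cblc-1, metr-1, mmaa-1 and pmp-5, with differences of 0.17, -0.17, 0.12 and -0.15 and adjusted p of 0.49 to 0.817. Of these, metr-1 encodes the B12-dependent methionine synthase, the other B12 enzyme of the worm.

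Among 14 genes of the methionine cycle and transsulfuration, 1 fell in HFD against OP, 0 rose and 13 did not pass. It was cth-1, a cystathionine gamma-lyase gene, at 291, 344 and 312 FPKM in OP and 200.1, 150.2 and 139 in HFD, with no overlap between groups. Its log2 difference was -0.96 (SE 0.19, adjusted p = 0.0141 in limma); the call was lost without OP replicate 2 (adjusted p = 0.0798), OP replicate 3 (0.055) or HFD replicate 2 (0.066). In FA against OP 2 of the 14 fell, cth-1 (-0.78, adjusted p = 0.0186) and the S-adenosylmethionine synthetase gene sams-5 (-0.96, adjusted p = 0.00926). There the call of cth-1 was lost without OP replicate 2 (0.0856), OP replicate 3 (0.0598) or FA replicate 3 (0.0543). The sams genes resemble each other in sequence, and how reads that match several of them were assigned is not stated, so the value of sams-5 is uncertain. In HFD against OP, sams-5, sams-4 and cbs-2 differed by -0.69, -0.25 and -0.40 without passing (adjusted p = 0.056, 0.239 and 0.28). Over the alternatives 0 to 2 genes of the list were called lower in HFD against OP and 1 to 3 in FA against OP. In FA against HFD 0 of 14 passed.

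Of 13 measured genes of branched-chain amino acid breakdown, a source of propionyl-CoA, 0 passed in any comparison, with a median of -0.10 in HFD against OP. The thiolase gene acaa-2 had the lowest p there, with 203 ± 22.7 FPKM in OP and 280.0 ± 13.9 in HFD (0.47, adjusted p = 0.066 in limma). It passed under 1 alternative, with the spread taken from only the OP and HFD libraries (adjusted p = 0.0409). It was followed by ivd-1, bckd-1B and bcat-1, at -0.27, -0.27 and -0.21. The close relative of acdh-1, acdh-2, averaged 13.0 ± 5.86 FPKM in OP, 11.2 ± 4.95 in HFD and 11.8 ± 5.54 in FA.

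**Figure D5:**
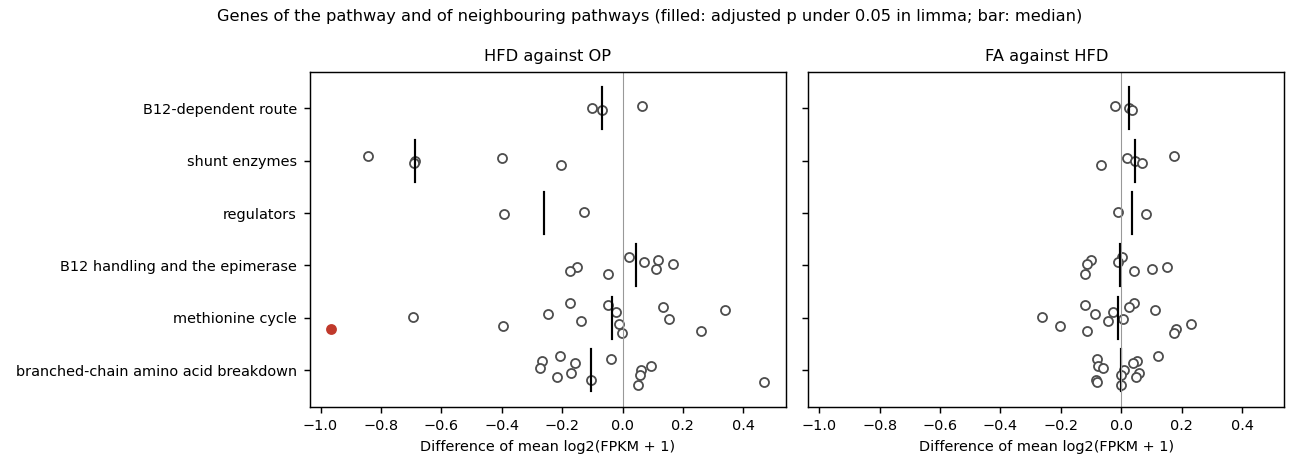
Differences of mean log2(FPKM + 1) (x axis) of each gene in the pathway and in 3 neighbouring lists (y axis) for HFD against OP and FA against HFD; filled points have an adjusted p under 0.05 in limma and bars are medians. The single filled point is cth-1, at -0.96.

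The shunt is mainly expressed in the intestine and hypodermis. In whole animals, fewer cells of a type and less RNA per cell cannot be told apart. In HFD against OP 0 of 9 intestinal markers were called. Their summed level was 4940 to 5416 FPKM in OP, 5259 to 9324 in HFD and 4766 to 10690 in FA. The protease gene asp-1 made up 71.8% to 83.02% of it in each library, and without asp-1 the sums were 1201 to 1394, 1135 to 1916 and 1224 to 2077 FPKM in the same order. In this list 0 markers were at 0 FPKM in any library. Of 8 hypodermal markers 1 rose, col-10 (0 to 2 over the alternatives tried), and 1 fell, the adult collagen gene col-19, from 899.9 ± 149.7 to 99.4 ± 62.5 FPKM. Hypodermal sums were 2353 to 2645 FPKM in OP, 2539 to 3545 in HFD and 2312 to 3973 in FA. Oocyte markers were lower in HFD, 4 of 5 called (1 to 5 over the alternatives), with sums of 199.8 to 334 FPKM in OP, 115.4 to 145 in HFD and 73.5 to 126 in FA. Of 5 sperm markers 1 fell (0 to 2 over the alternatives), with sums of 286 to 369, 164 to 176 and 85.0 to 215 FPKM in the same order. Of 4 body wall muscle, 6 neuronal and 4 germline markers 0 were called, with 0 to 1 neuronal marker higher over the alternatives. In FA against OP 0 of 9 intestinal markers were called, 5 of 5 oocyte, 3 of 5 sperm and 1 of 4 germline markers fell, 1 of 6 neuronal markers rose, and 2 hypodermal markers rose while 1 fell. Over the alternatives 5 of 5 oocyte, 2 to 4 sperm, 0 to 1 germline and 1 to 2 hypodermal markers were called lower there, and 0 to 1 intestinal, 0 to 2 neuronal and 0 to 2 hypodermal markers higher. In FA against HFD no marker of any of these lists was called in limma. The part of these differences in the shunt values was not tested.

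The 3 shunt genes with an unadjusted p under 0.05 in HFD against OP depended on single libraries. Their number was 0 when OP replicate 1, OP replicate 2 or HFD replicate 2 was left out, and 1 when HFD replicate 3 was. With OP replicate 3 or HFD replicate 1 left out, 4 members reached it, and with the libraries centred on their median 1 did. In FA against OP the number of such members went from 2 to 0 without any 1 of OP replicate 1, OP replicate 2, FA replicate 2 or FA replicate 3, to 1 without HFD replicate 3, and to 4 without OP replicate 3. It was also 0 with no filter on low values and with median centring. The HFD difference of acdh-1 from OP ranged from -1.15 to -0.62 when 1 library was left out, and its adjusted p from 0.0565 to 0.358 over all alternatives.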

How the data were processed

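Whole worms were profiled by RNA-seq in 9 libraries, 3 each for OP, HFD and FA. Libraries came from total RNA and an NEBNext Ultra II kit, per the labels' protocols. The submitters' processing notes name WBcel235 as the build. Aligner, counter, strandedness: not given in the sources used here. Deposited by the authors were FPKM values for 46986 genes, per the file headers; OP50 columns were matched to the OP samples by number, and there were 0 further columns of sample values. In each library 100% of values above 0, multiplied by gene length, came out as whole reads of 1 fixed size (tolerance 0.01 of a read), which gave the reads and the depth of 17514542 to 21419867 per library. The 52 loci with no gene name (0.0184% to 0.0293% of reads) were left out. Pairs of libraries in a group differed beyond counting noise (chi-square per gene of 18.3 to 84.6).

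Genes with at least 1 FPKM in at least 3 libraries (14730) were tested in R 4.3.3 with limma 3.58.1. The fit was made on log2(FPKM + 1), with 3 group means and a mean-variance trend, which leaves 6 residual degrees of freedom. Tests were two-sided, with Benjamini-Hochberg adjustment over all genes tested. The script was tested on simulated data. Since FPKM are not counts, voom on the recovered reads was an alternative only. The members and lists were chosen with earlier results of these data known. Named beyond the members were up to 4 genes per neighbouring list with the lowest p in HFD against OP, and the 3 genes closest in pattern to the lowest-p member of each role. Markers named beside them were chosen after their values were seen. Positions of the 10 genes matched the Ensembl annotation of WBcel235. One listed symbol of amino acid breakdown, mccc-2, was not used here.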

Additional observations from a re-analysis of the deposited data

How the results depend on the processing

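Under all 18 alternatives tried, 0 members were called in each of the 3 comparisons. The 5 shunt genes and both receptors kept negative differences in HFD against OP and in FA against OP under each of them. Several alternatives cannot change a difference, only its p. These are the filters, the replicate block, robust moderation of the spread, use of only the groups compared, and leaving out a library of another group. TMM scaling gave -0.83 for acdh-1 in HFD against OP, beside -0.84 in the main fit. The deposited values already carry a correction close to TMM, so this alternative nearly repeats the main fit and is no separate check. The number of all genes called was less stable. Without the filter on low values it was 472 in HFD against OP (from 1083) and 1424 in FA against OP (from 2146); with the spread taken from the 6 libraries compared it was 1659 for the former. The 1 call of FA against HFD became 0 with a pseudocount of 0.1, a filter at 5 FPKM, the replicate block, voom, or the spread from only those groups, and 0 to 2 when a library was left out. Leaving out 1 library gave 221 to 1486 calls in HFD against OP, the lowest being 221 (OP replicate 2 left out), 326 (HFD replicate 2), 332 (OP replicate 3), 652 (HFD replicate 3) and 705 (HFD replicate 1). In FA against OP it gave 883 to 2550, the lowest being 883 (OP replicate 2), 1072 (OP replicate 3), 1140 (FA replicate 2) and 1405 (FA replicate 3). Centring each library on its median moved the share of higher calls in FA against OP from 31.6% to 42.0%.

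Differences near 0 changed sign without nearing a call. Median centring gave 0.0016 for mmcm-1 in HFD against OP, 0.0049 for nhr-10 in FA against HFD, and 0.0081 for pccb-1 and 0.053 for mmcm-1 in FA against OP. Leaving out 1 library gave -0.20 to 0.0033 for pccb-1 and -0.13 to 0.0096 for mmcm-1 in HFD against OP, and -0.031 to 0.18 for pcca-1 and -0.23 to 0.12 for pccb-1 in FA against OP. In FA against HFD the ranges were -0.11 to 0.11 (pcca-1), -0.12 to 0.22 (pccb-1), -0.042 to 0.094 (mmcm-1), -0.047 to 0.38 (acdh-1), -0.15 to 0.22 (ech-6), -0.23 to 0.32 (hach-1), -0.093 to 0.31 (hphd-1), -0.21 to 0.15 (alh-8), -0.10 to 0.093 (nhr-10) and -0.15 to 0.32 (nhr-68). The cause of these changes was not tested.

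Whether replicate numbers pair the samples is not stated. The deviations of same-numbered HFD and OP libraries from their group means correlated at 0.0802, -0.0225 and 0.147 across genes. Those of FA and HFD correlated at 0.299, -0.0201 and 0.101, and those of FA and OP at -0.227, -0.186 and -0.104. The 0.299 was the highest for any libraries of different groups. Since the deviations of a gene sum to 0 over the 3 libraries of a group, these correlations cannot decide whether samples were paired. With the number as a replicate block, 837 genes passed for HFD against OP, 1868 for FA against OP and 0 for FA against HFD, and the members with an unadjusted p under 0.05 numbered 5, 4 and 0. For acdh-1 in HFD against OP, the block gave an unadjusted p of 0.0045 and an adjusted p of 0.0659 in limma. The 3 libraries per group limit the precision of every interval.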
